A study of Homo sapiens with 7 samples.

Results

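Accessible regions inside very long genes were examined in neurons made from LUHMES cells, an established line of human midbrain origin. Members were all regions of 7 ATAC-seq peak lists that overlapped the body of a protein-coding gene of 500 kb or more and lay over 1 kb from every end of a protein-coding gene. Of 19974 protein-coding genes, 314 were this long, with lengths of 500 to 2474 kb and a median of 723 kb. They held 67154 of the deposited regions over the 7 libraries. In lists of equal size, the 32828 regions of highest fold enrichment per library, they held 11278.

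ATAC-seq marks open DNA by the cuts of the Tn5 transposase. All cells were wild type and were differentiated for 6 days in medium with dibutyryl cAMP, GDNF and tetracycline, and all libraries therefore come from 1 cell line. The 4 stressed libraries (differentiations 6, 7, 8 and 9) received 25 µM antimycin A, which blocks respiratory complex III, with 10 µM oligomycin, which blocks the ATP synthase, for 8 hours. The 3 vehicle libraries (differentiations 6, 7 and 8) received DMSO. The batches are labelled as independent, and the comparison asks which DNA is open in neurons under mitochondrial stress.

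Very long genes are a hallmark of neurons: many encode synaptic adhesion molecules, ion channels, receptors and RNA-binding proteins. Transcribing one takes hours, and several lie at common fragile sites, which break when replication is slowed. Their interiors hold enhancers and also internal promoters, from which shorter proteins are made; the beta form of a neurexin, for example, starts deep inside the gene that encodes the alpha form.

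Internal start sites of 7 genes show what such regions can look like. Each line gives the 250 bases before a RefSeq transcription start inside a long gene (GRCh38.p14), 5′ to 3′ on the strand of the gene, with every CpG in capitals. NRXN3 and ANK3 are shown because their starts were open in all 7 equal-size lists, NRXN3 with many CpGs and ANK3 with few. ATP8A2, THSD4 and PALM2AKAP2 are shown because theirs were in 4 of 4 stressed and 0 of 3 vehicle equal-size lists, and AFF3 because its start was in 3 stressed lists and in no vehicle list even as deposited. RBFOX1 is shown for a start in no library. The 7 were chosen after their values were seen.
NRXN3, chr14:79279130-79279379, plus strand: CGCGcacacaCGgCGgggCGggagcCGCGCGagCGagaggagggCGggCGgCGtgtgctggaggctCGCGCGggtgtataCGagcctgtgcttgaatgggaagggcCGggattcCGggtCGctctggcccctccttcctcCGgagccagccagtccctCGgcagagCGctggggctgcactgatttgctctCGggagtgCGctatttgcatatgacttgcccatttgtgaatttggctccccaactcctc
ANK3, chr10:60572957-60573206, minus strand: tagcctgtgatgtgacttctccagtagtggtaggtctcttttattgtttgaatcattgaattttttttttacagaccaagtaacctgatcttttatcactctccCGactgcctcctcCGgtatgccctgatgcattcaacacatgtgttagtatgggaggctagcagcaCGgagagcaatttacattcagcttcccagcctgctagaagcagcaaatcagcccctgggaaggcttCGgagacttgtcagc
ATP8A2, chr13:25468524-25468773, plus strand: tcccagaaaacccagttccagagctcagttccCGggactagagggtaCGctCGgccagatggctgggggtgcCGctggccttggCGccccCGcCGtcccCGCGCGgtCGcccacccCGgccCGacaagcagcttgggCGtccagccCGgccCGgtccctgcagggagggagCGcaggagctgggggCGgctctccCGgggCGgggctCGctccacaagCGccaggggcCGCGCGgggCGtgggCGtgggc
THSD4, chr15:71115221-71115470, plus strand: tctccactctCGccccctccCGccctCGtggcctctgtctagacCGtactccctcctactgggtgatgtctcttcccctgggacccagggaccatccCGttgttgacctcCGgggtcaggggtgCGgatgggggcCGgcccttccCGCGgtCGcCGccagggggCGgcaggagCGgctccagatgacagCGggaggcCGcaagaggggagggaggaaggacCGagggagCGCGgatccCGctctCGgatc
PALM2AKAP2, chr9:110125251-110125500, plus strand: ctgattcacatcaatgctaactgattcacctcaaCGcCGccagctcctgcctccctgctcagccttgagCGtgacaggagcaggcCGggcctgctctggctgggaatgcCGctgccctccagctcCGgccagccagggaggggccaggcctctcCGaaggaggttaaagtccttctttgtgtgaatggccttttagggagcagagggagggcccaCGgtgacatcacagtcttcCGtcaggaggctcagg
AFF3, chr2:100105584-100105833, minus strand: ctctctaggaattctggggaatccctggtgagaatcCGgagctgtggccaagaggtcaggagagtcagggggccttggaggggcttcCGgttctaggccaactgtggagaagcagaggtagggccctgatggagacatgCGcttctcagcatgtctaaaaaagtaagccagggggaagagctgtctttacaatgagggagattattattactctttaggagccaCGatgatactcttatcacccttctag
RBFOX1, chr16:7332595-7332844, plus strand: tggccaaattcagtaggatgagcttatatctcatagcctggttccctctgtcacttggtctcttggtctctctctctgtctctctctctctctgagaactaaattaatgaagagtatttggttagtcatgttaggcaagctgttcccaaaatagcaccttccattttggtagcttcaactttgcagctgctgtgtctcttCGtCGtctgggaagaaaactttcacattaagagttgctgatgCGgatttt

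The NRXN3 start, which lies 1109 kb into a gene for a presynaptic adhesion protein, had 24 CpGs in these 250 bases and a G+C content of 66.4%. The ANK3 start, 160 kb into the gene for the axon initial segment scaffold ankyrin-G, had 4 CpGs and 46.4%. The internal start of ATP8A2, a phospholipid flippase gene, had 27 CpGs, that of THSD4 had 21 and that of PALM2AKAP2 had 9. The AFF3 start had 4 CpGs and the RBFOX1 start 3. Open starts thus occurred both with and without many CpGs.

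The lists as deposited held 32828 to 248900 regions, so all comparisons of libraries used equal-size lists unless stated. Their median region width was 484 to 1450 bp in the stressed and 319 to 868 bp in the vehicle libraries. Among 10 general neuronal markers, RBFOX3 had no region at a gene end in any equal-size list. Of these 10, 8 or 9 had one in every library. Of 12 dopaminergic markers, 5 or 6 did, and TH, DDC, SLC18A2, LMX1B and ALDH1A1, which define the labelled cell type, had none in any equal-size list; of these 5, ALDH1A1 also had none in any deposited list, while the other 4 had one in at least 1. Mesenchymal and endothelial markers had 4 to 5 of 9 in the stressed and 2 to 3 in the vehicle libraries, with COL3A1, COL1A2, CDH5 and PECAM1 at 0. Progenitor and cycling markers had 5 to 6 of 7 against 2 to 6, and glial markers 2 to 6 of 10 against 1 to 5. The part of other cells in the results below was not tested.

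Long genes held a smaller share of the strongest regions in the stressed than in the vehicle libraries, but the difference did not pass the test. The equal-size lists had 1560, 1580, 1338 and 1483 regions inside long genes in stressed libraries 6, 7, 8 and 9, which is 4.75, 4.81, 4.08 and 4.52% of each list. Vehicle libraries 6, 7 and 8 had 2006, 1552 and 1759, or 6.11, 4.73 and 5.36%. Vehicle 6 stood highest and vehicle 7 lay within the stressed range, so the groups overlapped. The means were 4.54% ± 0.334 (SD, n = 4) and 5.40% ± 0.692 (SD, n = 3), a difference of -0.859 percentage points with an exact permutation p of 0.0857 (two-sided; the smallest that 35 assignments allow is 0.0286). Without vehicle 6 the difference was -0.503 (exact permutation p = 0.267).

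**Figure D1:**
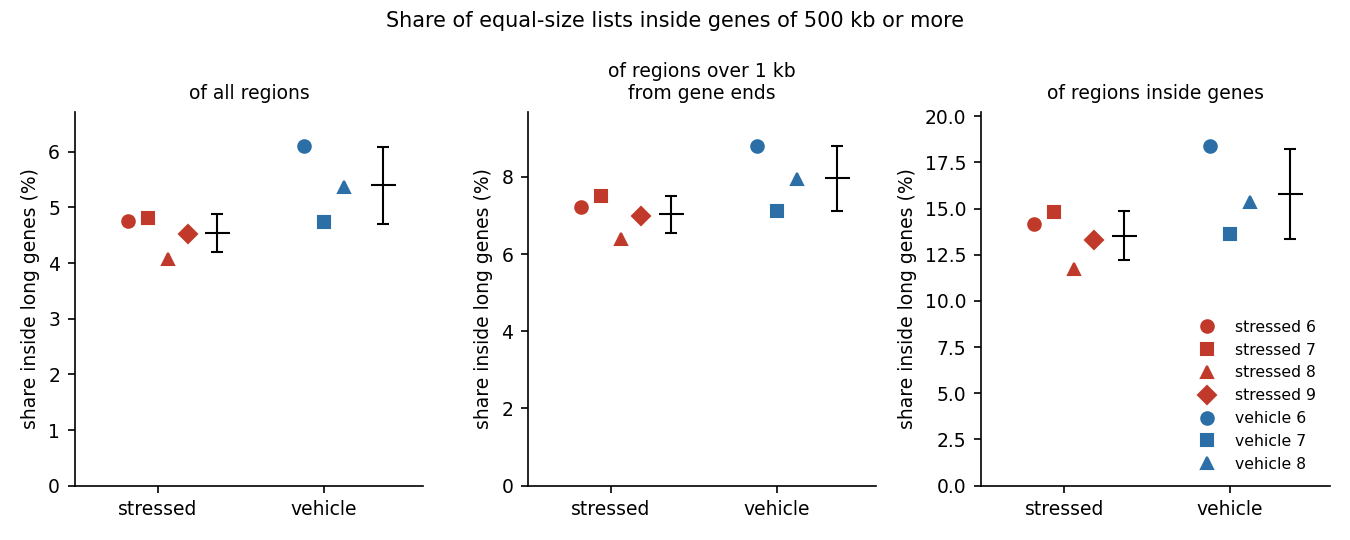
Percent of each equal-size list inside genes of 500 kb or more (vertical axes), out of all regions, of regions over 1 kb from gene ends and of regions inside genes. Each point is a library, the bars give mean ± SD (4 stressed, 3 vehicle libraries), and vehicle 7 lies among the stressed libraries in all 3 panels.

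Regions at gene ends made up 35.4% ± 0.846 of the stressed and 32.3% ± 1.52 of the vehicle lists (SD, n = 4 and 3; exact permutation p = 0.0286), so the share was also taken without them. Of regions away from gene ends, long genes then held 7.03% ± 0.484 against 7.96% ± 0.842 (exact permutation p = 0.143, n = 4 and 3). Of regions inside any protein-coding gene they held 13.5% ± 1.33 against 15.8% ± 2.43 (exact permutation p = 0.2, n = 4 and 3). Without vehicle 6 these differences went from -0.933 to -0.506 and from -2.26 to -0.951 percentage points. For comparison, shorter genes held 29.1% ± 1.24 and 28.9% ± 1.58 of the lists (exact permutation p = 0.857, n = 4 and 3). The number of long genes with at least 1 interior region was 295, 291, 281 and 294 in the stressed and 298, 288 and 299 with vehicle (exact permutation p = 0.4). None of the long-gene differences passed the test.

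Within every library, open regions were sparser in long genes than in shorter ones. Long genes had 5.99, 6.07, 5.14 and 5.70 regions per Mb of interior in the stressed libraries and 7.70, 5.96 and 6.76 in the vehicle libraries. Shorter genes had 9.27 to 10.5 per Mb. The ratio of long to shorter genes was 0.491 to 0.831 and below 1 in 7 of 7 libraries, with a mean of -0.69 ± 0.236 on the log2 scale (SD, n = 7; exact sign-flip permutation p = 0.0156, the smallest possible). In the lists as deposited the ratio was 0.544 to 1.16, below 1 in 5 of 7 libraries (exact sign-flip permutation p = 0.203).

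By length class, the longest genes had fewer regions per Mb than the shortest in each library. Genes under 100 kb had 9.56 to 13.2 regions per Mb over the 7 libraries, those of 300 to 500 kb 7.83 to 9.57, those of 500 to 750 kb 5.81 to 7.64, those of 750 to 1000 kb 5.65 to 8.70 and those of 1000 kb or more 4.14 to 7.17. The classes did not fall in order in every library: genes of 750 to 1000 kb were denser than those of 500 to 750 kb in vehicle 6 (8.70 against 7.64), stressed 7 and vehicle 7. As deposited, stressed 7 had 74.1 regions per Mb in the shortest and 101.0 in the longest class, and stressed 6 had 61.4 and 66.7. Vehicle 6 had the most regions per Mb in each of the 3 long classes and the fewest in genes under 100 kb. The median width of the regions in long genes was 0.913 times that in shorter genes, lower in 7 of 7 libraries (exact sign-flip permutation p = 0.0156). Their median fold enrichment, a value computed by the authors' peak caller, was on average 0.998 times that in shorter genes. Both medians were equal in every library except stressed 7 (8.29 in long against 8.44 in shorter genes). With such ties the outcome of a sign-flip test is fixed in advance, so it decides nothing here.

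**Figure D2:**
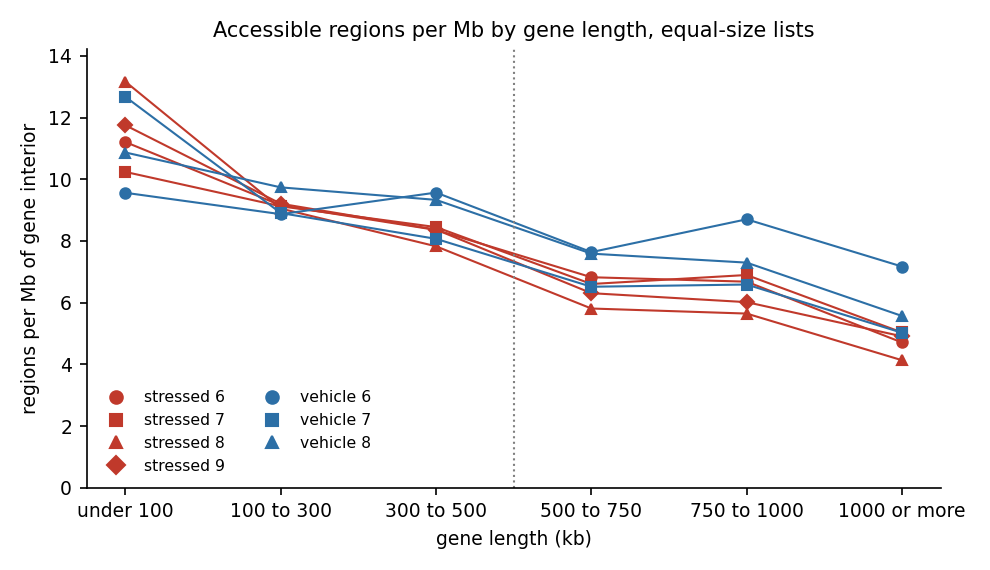
Regions per Mb of gene interior (vertical axis) in 6 classes of gene length (horizontal axis, kb), equal-size lists, with 1 line per library and a dotted line at 500 kb. Densities fall from 9.56 to 13.2 per Mb in the shortest class to 4.14 to 7.17 in the longest.

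The genes with the most interior regions were led by a chromatin regulator. GSE1, a subunit of co-repressor complexes, had 39, 37, 49 and 41 regions in the stressed and 29, 41 and 39 in the vehicle libraries. Its mean of 77.5 regions per Mb was the highest of the 314 genes, whose median was 4.90. NAV2, a neuron navigator protein that acts in neurite growth, had 17 to 30 regions per library, and the teneurin TENM4, a synaptic adhesion protein, had 21 to 26. ZFHX3, a transcription factor of neuronal differentiation, had 14 to 27, and the neurotrimin gene NTM, a cell adhesion protein, had 17 to 26. TRAPPC9 had 13 to 23, KIAA1217 14 to 21 and the teneurin TENM2 10 to 20. RBFOX1 and NRXN3, described below, complete the first 10, with OPCML level with NRXN3 at 15.4 regions per list. Regions were concentrated in few genes, since 69 of the 314 genes held 50% of them. At least 1 region was present in all 7 equal-size lists in 256 genes, and in none of them in SCAPER and CEP112.

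By gene, none of 203 long genes differed between stressed and vehicle libraries after adjustment. The fit (limma on log2 of regions per gene + 0.5) took the 970 protein-coding genes with a mean of at least 3 interior regions, and 111 long genes fell under that mean. At a Benjamini-Hochberg adjusted p of 0.05 it called 0 of 970 genes in either direction (0%), and the lowest adjusted p was 0.147. At an unadjusted limma p of 0.05, 22 long genes (10.8%) were higher in vehicle, where 4.02% of all genes tested were, and 4 (1.97%) were higher in stressed, where 4.43% were. The median log2 change of the long genes was -0.21, with 143 of 203 below 0, beside -0.03 and 520 of 970 over all genes tested. Without vehicle 6, 12 long genes were higher in vehicle and 4 in stressed at that unadjusted p. The share over all genes tested is not given for that setting, so these 2 counts have no background beside them.

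In 8 long genes all stressed libraries had fewer regions than all vehicle libraries (3.94%, beside 2.06% of all genes tested), and in 3 all had more (1.48%, beside 2.16%). These 11 are described here although none passed the adjusted test. GLIS3, a zinc-finger transcription factor, had 3, 4, 3 and 2 regions in the stressed and 13, 10 and 7 in the vehicle libraries. This is a log2 change of -1.57 (SE 0.279, limma adjusted p = 0.147), the lowest adjusted p of all genes tested. EYS, known for a matrix protein of photoreceptors, had 5, 5, 4 and 4 against 14, 9 and 8 (log2 change -1.08, SE 0.243, limma adjusted p = 0.319). Both genes had their highest count in vehicle 6.

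FHIT, a diadenosine triphosphate hydrolase gene that spans a common fragile site, had 3, 5, 1 and 4 regions in the stressed and 11, 7 and 6 in the vehicle libraries (log2 change -1.29, limma adjusted p = 0.365). PDE4D, a phosphodiesterase that degrades cAMP, had 11, 11, 10 and 10 against 26, 14 and 15 (-0.72, limma adjusted p = 0.365). NRXN3 had 14, 12, 10 and 13 against 24, 18 and 17 (-0.66, limma adjusted p = 0.365). In all 3 genes vehicle 6 stood highest. The other 3 genes had smaller counts, with adjusted limma p-values of 0.365 to 0.515. They were 5, 5, 4 and 4 against 9, 6 and 10 for GALNTL6, of the family of GalNAc transferases, and 3, 3, 5 and 3 against 6, 6 and 6 for ADGRL3, an adhesion receptor of the latrophilin family. TMEM117 had 6, 6, 2 and 5 against 8, 8 and 9.

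Higher counts in stressed libraries were seen in 2 synaptic genes. GRID1, the delta-1 glutamate receptor, had 10, 12, 11 and 13 regions in the stressed and 5, 6 and 9 in the vehicle libraries (log2 change 0.78, SE 0.232, limma adjusted p = 0.365). SHANK2, a scaffold of the postsynaptic density, had 12, 12, 9 and 7 against 2, 6 and 6 (1.12, SE 0.352, limma adjusted p = 0.365). SNX29, a sorting nexin gene, had 13, 13, 13 and 15 against 11, 11 and 12 (0.24, limma adjusted p = 0.736). In the lists as deposited these 3 log2 changes were 0.78, 0.77 and 0.41. Those of the 8 genes higher in vehicle were nearer to 0 there, at -0.60 in GLIS3, -0.34 in EYS, -0.35 in FHIT, -0.28 in PDE4D, -0.0784 in NRXN3, -0.30 in GALNTL6, -0.57 in ADGRL3 and -0.36 in TMEM117. Without vehicle 6 the log2 change was 0.66 in SHANK2 and -0.45 in PDE4D, and without stressed 8 it was -0.52 in TMEM117.

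**Figure D3:**
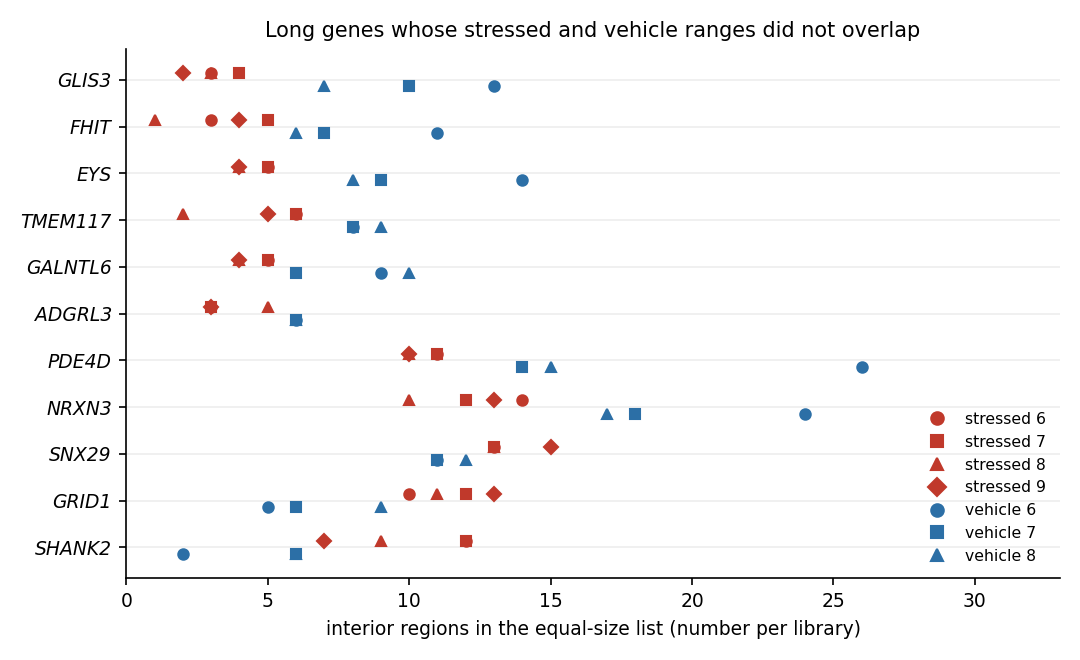
Interior regions per library in the equal-size lists (horizontal axis) for the 11 long genes whose stressed (red) and vehicle (blue) libraries did not overlap, ordered by log2 change. Each symbol is a library, and equal counts lie on top of each other. GLIS3 has 2 to 4 regions in the stressed and 7 to 13 in the vehicle libraries, and SHANK2 7 to 12 and 2 to 6.

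Further genes were followed whatever their counts. GRIK2, a kainate receptor subunit, had 2, 3, 2 and 3 regions in the stressed and 7, 3 and 5 in the vehicle libraries (log2 change -0.83, limma adjusted p = 0.515). DMD, the dystrophin gene, had 2, 2, 4 and 3 against 14, 6 and 2 (-0.97, limma adjusted p = 0.594), and without vehicle 6 the log2 change was -0.36, without vehicle 8 -1.62. RBFOX3, which encodes the neuronal splicing factor NeuN, had 10, 7, 13 and 7 against 5, 16 and 12 (-0.14, limma adjusted p = 0.942). GALNTL6 is given above and RBFOX1 follows. In GRIK2, DMD and RBFOX3 the groups overlapped.

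RBFOX1, a neuronal splicing regulator and the longest of the 314 genes, had 10, 11, 26 and 26 regions in the stressed and 28, 33 and 10 in the vehicle equal-size lists (log2 change -0.34, limma adjusted p = 0.846). With 1 library left out at a time, that change was -0.86 (without vehicle 8) to -0.02 (without vehicle 7). Low counts fell on stressed 6, stressed 7 and vehicle 8, the libraries with the longest deposited lists. As deposited, the gene held 588, 818, 80 and 78 regions in the stressed and 93, 33 and 327 in the vehicle libraries, and the log2 change was 0.49 (limma adjusted p = 0.998). The regions lay unevenly along the gene. The first 1400 kb held 82.1, 80.3, 88.8 and 88.5% of them in the stressed and 76.3, 66.7 and 79.2% in the vehicle libraries, a boundary chosen after the plot was seen. The first stretch had 1.57 to 46.9 regions per 100 kb and the rest 0.818 to 14.6, and the first was the denser in each library.

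**Figure D4:**
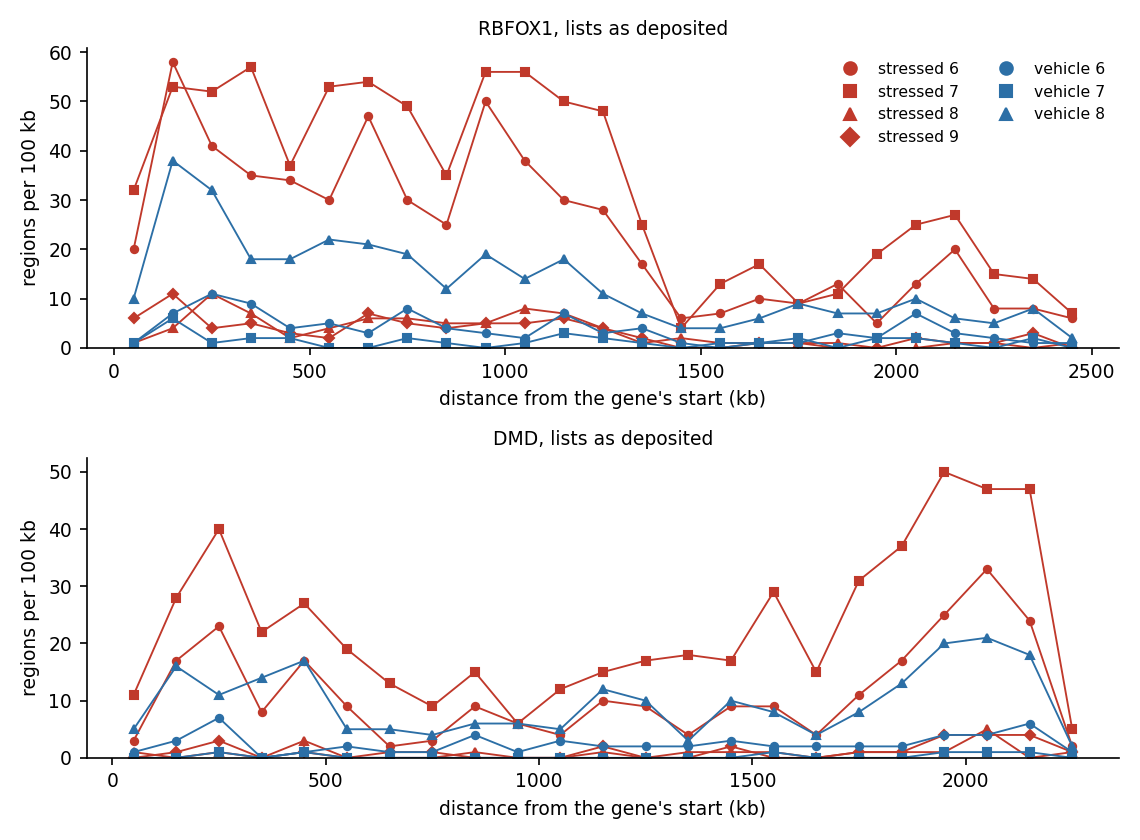
Deposited regions per 100 kb (vertical axes) by distance from the gene's start (horizontal axes, kb) in RBFOX1 and DMD, with 1 line per library. In RBFOX1 the counts drop near 1400 kb, before which 66.7 to 88.8% of the regions lie.

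DMD had 258, 530, 19 and 26 deposited regions in the stressed and 56, 6 and 223 in the vehicle libraries. In the 3 libraries with the longest lists they were most frequent toward the gene's far end. Over the 262 long genes with a known strand, the final 20% of the gene held 27.3 to 30.8% of the equal-size-list regions and the initial 20% 16.2 to 19.6%. This order held in each of the 7 libraries.

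Grouped by role, long genes had lower mean counts in the stressed libraries in each of 6 lists, and in each list the ranges of the groups overlapped or met. The 45 synapse organisers and adhesion molecules had 283, 300, 250 and 283 regions in the stressed and 441, 300 and 309 in the vehicle libraries. Of the 35 tested, 28 had a log2 change below 0, with a median of -0.25, and 1 had no overlap (NRXN3). For comparison, 70.4% of the 203 long genes and 53.6% of all 970 genes tested lay below 0, and 2.06% of all had no overlap in that direction, so the counts of the lists are descriptions and single out no role. The 17 genes of axon guidance and growth factor signalling had 55 to 75 against 63 to 93 regions, and 9 of 13 tested lay below 0. The 21 receptors and ion channels had 81 to 109 against 92 to 132, with 11 of 14 below 0 and GRID1 above.

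The 12 second messenger enzymes had 50 to 54 regions in the stressed and 49 to 76 in the vehicle libraries, and 2 of 6 tested lay below 0. The 17 transcription and RNA-binding factors had 104 to 118 against 111 to 133, with 8 of 13 below 0. The 23 common fragile site genes had 138, 137, 114 and 127 against 187, 135 and 156, with 12 of 17 below 0. For these genes the density was 4.4 regions per Mb, the lowest of the 6 lists, and for transcription and RNA-binding factors it was 7.76, the highest. Over all 970 genes tested the median log2 change was -0.03, and no gene of any list passed the adjusted test.

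Merging the 7 equal-size lists gave 62507 regions, of which 3961 lay inside long genes. Of these, 443 (11.2%) were present in all 7 libraries and 1961 (49.5%) in 1 library only. In shorter genes 13.9% were present in all 7, and at gene ends 60.4%. Vehicle 6 and vehicle 7 held 608 and 509 of the regions found in 1 library, and the other libraries 58 to 263.

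Regions present in all 7 libraries were led by RABGAP1L, PDE4D and ZNF385D, ranked by their lowest fold enrichment. The RABGAP1L region (chr1:174799217-174801140), in a gene for a Rab GTPase-activating protein, covered an internal start 640 kb into the gene, and its folds were 67.6, 40.6, 20.4 and 25.6 in the stressed and 40.2, 22.3 and 78.9 in the vehicle libraries. The PDE4D region (chr5:59126610-59128762) lay 1393 kb into the gene, over no listed start, with folds of 19.9 to 78.0. The ZNF385D region (chr3:21749912-21752140), in a zinc-finger gene, had folds of 17.4 to 71.4. Those of ULK4 (chr3:41362583-41364918), SLC44A5 (chr1:75613867-75617124), SLC24A2 (chr9:19649457-19652539) and GRIK2 (chr6:101400294-101403817) followed, with lowest folds of 14 to 16.5. Whether these regions lie in exons or introns was not analysed here.

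Present in 4 of 4 stressed and 0 of 3 vehicle libraries were 10 long-gene regions (0.252%, beside 0.781% of all merged regions). Present in 0 and 3 were 22 (0.555%, beside 0.37%). With Fisher's exact test all 32 had p = 0.0286. This is the smallest that 4 against 3 libraries allow and follows from how the 32 were picked. Of the 62507 merged regions 719 had that p, too few for any to pass adjustment (smallest adjusted p 1.00). The test therefore could not single out a region. With 1 library left out at a time, the counts of 10 and 22 became 13 to 44 and 24 to 81. The merged regions stayed the same and the condition was looser, so these counts could not fall. The highest came without vehicle 8 for stressed-only and without vehicle 7 for vehicle-only regions.

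All 10 stressed-only regions overlapped a deposited region of vehicle 8 and none of vehicle 6 or vehicle 7. They lay in SORCS2, DLGAP2, PALM2AKAP2, TSHZ2, KAZN, SHANK2, MDGA2, AUTS2, ATP8A2 and THSD4. The SORCS2 region (chr4:7515161-7516725), in a gene for a neuronal sorting receptor, had folds of 18.2, 10.2, 7.16 and 8.00 in the stressed libraries and 6.57 in vehicle 8. The SHANK2 region (chr11:70521768-70524030) had 10.1, 7.29, 4.96 and 6.00, and 8.22 in vehicle 8. The AUTS2 region (chr7:70624268-70625103), in a gene of neuronal development, had 10.1, 9.01, 6.06 and 4.80, and 5.75 in vehicle 8. These regions were 836 to 2689 bp wide, and 3 of 10 covered an internal start of their gene.

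Of the 22 vehicle-only regions, 21 overlapped a deposited region of stressed 6 and of stressed 7, 1 of stressed 8 and 2 of stressed 9. The strongest lay in GRIK2 (chr6:102035274-102035831), with folds of 10.7, 7.45 and 13.6 in the vehicle libraries and deposited folds of 7.86 and 5.58 in stressed 6 and 7. The others that the rule names lay in GALNTL6, GALNT13, TAFA1, DSCAM, TRAPPC9, FRMD4A and ATP8A2. The ATP8A2 region (chr13:25686844-25687625) had folds of 6.70, 4.96 and 12.7 in the vehicle libraries and was the 1 region with no deposited region in any stressed library. Vehicle-only regions were 330 to 905 bp wide and 0 of 22 covered an internal start. ATP8A2 thus had a stressed-only region 96.3 kb into the gene and a vehicle-only region 315 kb into it.

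Internal start sites made up a larger part of the long-gene regions in the stressed libraries. RefSeq gave 306 groups of internal starts in 164 of the 314 genes. The regions over them were 7.12, 7.47, 7.10 and 7.15% of long-gene regions in the stressed and 5.13, 5.09 and 5.91% in the vehicle libraries, and the groups did not overlap. This measure was added after the data were seen and is given without a test. Regions over starts numbered 111, 118, 95 and 106 against 103, 79 and 104, which overlap, and regions elsewhere 1449, 1462, 1243 and 1377 against 1903, 1473 and 1655, which do not. Region width and the share at gene ends differed along with it, and their part was not tested. In shorter genes, regions over any RefSeq start made up 13.54, 15.01, 12.12 and 13.88% in the stressed libraries. Vehicle libraries had 12.44, 11.08 and 12.44% there, so the mean was also higher in stressed, but the groups overlapped. In long genes the same measure gave 8.72, 9.30, 8.07 and 8.97% against 5.98, 6.12 and 7.16%. Whether the higher share is particular to long genes was not tested. As deposited, the share over internal starts was 0.792 to 3.87% in the stressed and 1.23 to 5.09% in the vehicle libraries.

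**Figure D5:**
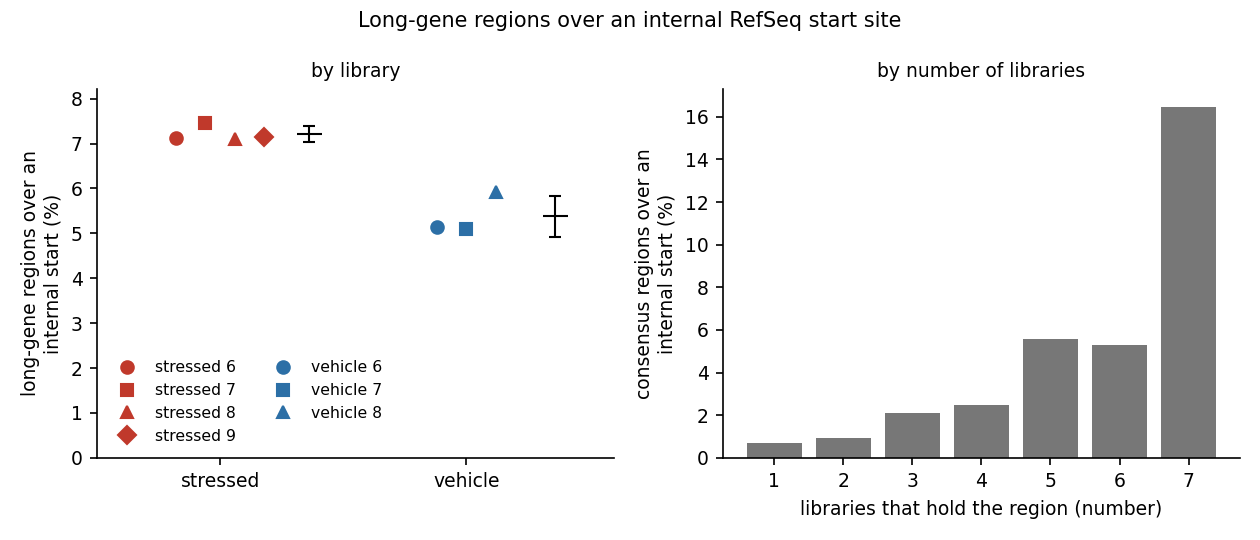
Left, percent of long-gene regions over an internal RefSeq start (vertical axis) by library, with mean ± SD at the side (4 stressed, 3 vehicle libraries). Right, the same percent among merged regions by the number of libraries that hold them, which is 0.714% for regions in 1 library and 16.5% for regions in all 7.

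Of the 306 start groups, 64 in 57 genes were open in all 7 equal-size lists, 73 in 1 to 6 lists and 169 in none. Those open in all 7 had a median of 22 CpGs in 300 bases and a G+C content of 66.3%, and those open in none had 3 CpGs and 43.0%, as in the NRXN3 and RBFOX1 sequences printed above. The letters TGANTCA (either strand), which include the AP-1 site but are broader, occurred in 8 of 92 start windows open in all 7. They occurred in 29 of 186 open in none and in 7.68% of all RefSeq start windows of that length. The letters TATAAA, which need not be a TATA box, occurred in 5 of 92, 38 of 186 and 11.5%. The CRE motif TGACGTCA occurred in 1 of 92, 0 of 186 and 1.85%. G+C content differed between these windows, and its part in the counts was not tested.

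The NRXN3 start printed above had folds of 54.7, 30.7, 16.0 and 21.2 in the stressed and 26.8, 10.6 and 62.0 in the vehicle libraries. In PDE4D, whose starts give isoforms of different length, 3 of 7 start groups were open in all 7 lists, 1 in 3 lists and 3 in none. The last 3 overlapped a deposited region of 1 or 2 stressed and 0 vehicle libraries. In DMD all 5 internal start groups were outside every equal-size list. All but that at 927 kb overlapped a deposited region of 2 or 3 stressed and 1 or 2 vehicle libraries. In RBFOX1 a start group 779 kb into the gene was in 1 stressed and 2 vehicle equal-size lists. Another, at 1243 kb, was in 3 stressed lists and 1 vehicle list. The groups at 2093 kb, printed above, and at 2270 kb were in no list, deposited lists included.

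Of the start groups, 6 were in at least 3 stressed and 0 vehicle equal-size lists, and none was in 2 or more vehicle and 0 stressed lists. The 6 are 4.38% of the 137 groups in at least 1 list, beside 2.41% of all merged regions and 2.65% of those at gene ends. The opposite pattern, at 0%, was found in 2.31% of all merged regions and in 0.375% of those at gene ends. Those of ATP8A2, THSD4 and PALM2AKAP2 were in all 4 stressed lists. Those of AFF3, a transcription elongation factor gene, SLC4A4, a sodium bicarbonate cotransporter gene, and CREB5, a transcription factor gene, were absent from stressed 8. AFF3 had folds of 12.6, 11.6 and 4.4 in stressed 6, 7 and 9. The other 5 had a deposited region in vehicle 8, with folds of 4.52 to 8.22.

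At the limits of the rule, AFF2 (500 kb) was the shortest gene inside, with 3.14 regions per list, and DIAPH3 (498 kb) the longest outside, with 1.57. Within 1 kb of a gene end, long genes held another 259 to 272 regions per library, and 12 to 33 members lay between 1 and 2 kb from an end.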

How the data were processed

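ATAC-seq peak lists of 7 libraries (4 stressed, 3 vehicle) were used. Peaks were called with MACS2 for each library separately, per the file headers. Per the submitters' processing notes, FastQC, Bowtie2 and Picard were used with build hg38, versions unnamed. Read shifting and the options of the caller, which set region width, are not stated there. Each deposited row gives a position, a score, a fold enrichment (a ratio), −log10 p and −log10 q, all from the authors' peak caller, and the summit's offset. The number of reads is not given there, so depth is known only through list length and no counting intervals are given.

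Only chromosomes 1 to 22 and X were kept, where 0 peaks overlapped another of their file. Each list was reduced to its 32828 regions of highest fold, which are the same regions as by −log10 p. Ranking by −log10 p is therefore no separate check. The lowest fold kept was shared by 9516 deposited regions in stressed 8, 8362 in vehicle 6 and 6100 in stressed 9. In the other libraries 1133 to 2676 regions shared it. Such ties were broken by −log10 p, then by width and position. The weakest region kept had a −log10 p of 4.37 in vehicle 7 and 21.0 in stressed 7, so a region outside a list is not shown to be closed. Gene ends came from RefSeq (GRCh38.p14), and RefSeq start windows (250 bases before to 50 after a start) gave strand and internal starts for 262 of 314 long genes. Start windows within 1 kb of each other formed 1 group. Bodies span all models of a gene, so nested and fused genes can share regions.

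Single values were compared by exact permutation of the labels, gene classes by exact sign flips over libraries, genes by limma with trend, Benjamini-Hochberg over 970 genes, and merged regions (presence is any overlap) by Fisher's exact test. The overlap and model code was tested on simulated data. Named genes were the 10 with the most regions, genes past the threshold (0), up to 8 per direction without overlap of the groups, and a fixed panel; named regions were up to 8 per set by lowest fold, and the remaining stressed-only regions, AFF2, DIAPH3, SCAPER, CEP112, OPCML and all start sites were named after their values were seen. Some items named by this rule are left out of the text. Members, lists and tests were chosen with earlier results of these data known. Alternatives are given in the closing section. Python 3.11.15, pandas 2.3.3, scipy 1.17.1, matplotlib 3.10.9, R 4.3.3 and limma 3.58.1 were used.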

Additional observations from a re-analysis of the deposited data

Results flagged for a closer look

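In 3 of 29 groups of 4 stressed libraries tested, 1 library stood apart from the others, with a gap equal to the whole range (1); chance flags about 1 in 20 groups. In ADGRL3 stressed 8 had 5 regions and the other stressed libraries 3 each. In TENM4 stressed 7 had 25 and the others 21 each. In SNX29 stressed 9 had 15 and the others 13 each. The other counts of each group were tied, so a difference of few regions sufficed.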

How the results depend on the processing

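With the lists as deposited, the share inside long genes differed by 0.383 percentage points and the number of long genes with a region by 7, both reversed, the density ratio was -0.29 on the log2 scale (exact sign-flip permutation p = 0.203), and vehicle-only regions numbered 3. Log2 changes also reversed there, to 0.0685 in TENM2, 0.0319 in KIAA1217, 0.0423 in TENM4, 0.22 in NTM, 0.49 in RBFOX1, -0.0263 in GSE1 and 0.35 in DMD. With genes of 300 kb or more, stressed-only and vehicle-only regions numbered 21 and 40, and with genes of 1000 kb or more 2 and 6, since the class of genes changes. The cause of the other changes was not tested.

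Leaving out each library in turn gave a share difference of -1.19 to -0.50, stressed-only regions of 13 to 44 and vehicle-only regions of 24 to 81, and 0 genes called. Over these, the log2 change was -0.18 to 0.15 in TENM2, -0.14 to 0.0549 in KIAA1217, -0.22 to 0.18 in NAV2, -0.18 to 0.0447 in NTM, -0.0368 to 0.42 in ZFHX3 and -0.60 to 0.19 in RBFOX3. Stressed-only regions numbered 23, 32 and 20 without stressed 6, 8 and 9, and 20 and 44 without vehicle 6 and 8. Vehicle-only regions numbered 34 without stressed 7, and 42, 81 and 55 without vehicle 6, 7 and 8. Both counts could only stay or rise, because leaving out a library loosens their condition. The distal difference was -1.35 to -0.506 and the gene-interior one -3.35 to -0.951, both smallest without vehicle 6. Log2 changes that kept their sign but moved by over 1.5 times included 0.66 to 1.35 in SHANK2, -0.88 to -0.45 in PDE4D, -0.98 to -0.52 in TMEM117, -1.62 to -0.36 in DMD, -0.86 to -0.0197 in RBFOX1 and 0.0448 to 0.29 in GSE1. The other share and density results kept their side of the threshold under all alternatives run. They also kept direction, except that the number of long genes with a region differed by 0 with genes of 1000 kb or more.

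The deviations of libraries with the same differentiation number had r = -0.07, -0.29 and -0.14. Other pairs of a stressed and a vehicle library had -0.24 to 0.34, the highest for stressed 6 with vehicle 8, both with long deposited lists. Each same-number pair set a long deposited list against a short one. These values therefore cannot show whether libraries of the same differentiation number belong together. With the number as a replicate block, the share difference was -0.852, that of distal regions -0.918, of gene-interior regions -2.20 and of genes -6.00; 3 pairs allow no p under 0.25. The block called 0 genes and left 13 long genes higher in vehicle at an unadjusted p of 0.05, against 22. As alternatives added after the data were seen, those 22 were 0 as deposited, 12 without vehicle 6, 12 at a −log10 q of at least 5 and 13 in lists cut to 16414 regions. The shares over all genes tested are not given for these settings or for the block, so these counts have no background beside them. Without vehicle 6, 14 and 6 long genes had no overlap, higher in vehicle and in stressed, of 44 and 36 over all genes tested. The summit rule and the block were not run for merged regions, nor the block for density. Depth is not known beyond list length.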
